A study of Mus musculus with 14 samples.

Results

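The 33 interferon response genes described here are transcripts that cells make more of when type I or type II interferon binds its receptor. They were taken as a named list by a rule that used no measured value, although earlier results of these data were known when it was drawn up, and all 33 were found among the 42396 gene rows of both count tables. RNA was sequenced from whole hearts of 14 female FS6KD mice, in which a gene-trap allele lowers the complex I subunit gene Ndufs6. For the knockout comparison, 4 libraries labelled Atf3-/-FS6KD, with a germline CRISPR deletion within Atf3, were compared with 4 libraries labelled Atf3+/+FS6KD, at 12 weeks. For the AAV comparison, 3 libraries labelled MyoAAV2-shAtf3 were compared with 3 labelled MyoAAV2-shCtrl, from FS6KD hearts collected 12 weeks after neonatal injection of a muscle-directed adeno-associated virus that carries a short hairpin RNA against Atf3 or a control hairpin. Every group therefore carried the complex I defect, and no heart without it enters these comparisons. The question put to each comparison was whether loss of Atf3, a stress-induced transcription factor of the ATF/CREB family, moved the interferon-induced genes.

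Type I interferons act through the IFNAR1 and IFNAR2 receptor chains, JAK1 and TYK2, and a complex with STAT2 and IRF9 that binds the interferon-stimulated response element. Type II interferon (interferon gamma) acts through IFNGR1 and IFNGR2, JAK1 and JAK2, and induces genes through the gamma-activated site. The induced proteins sense foreign RNA and DNA, block viral translation and release, or, like the guanylate-binding proteins and immunity-related GTPases, attack the membranes that surround intracellular parasites. In the heart these genes are expressed at a low resting level by muscle and non-muscle cells and are known as a marker of antiviral and sterile inflammation. In whole-heart RNA, fewer cells of a type and less RNA per cell cannot be told apart.

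Library totals were between 33914931 and 134920825 estimated counts in the knockout experiment and between 30085432 and 40534913 in the AAV experiment. For both genotypes, replicates 1 and 2 were at 33914931 to 42409691 and replicates 3 and 4 at 112904389 to 134920825. Values per library are given below in the order of replicate number, with Atf3+/+ and Atf3-/- hearts standing for the labelled FS6KD groups. The targeted gene did not separate the groups as a loss would. Atf3 was at 25.8, 6.89, 6.91 and 6.36 CPM in the Atf3+/+ hearts and 25.6, 37.6, 22.7 and 14.3 CPM in the Atf3-/- hearts, so Atf3+/+FS6KD replicate 1 stood with the libraries labelled knockout, which were not lower (adjusted p = 0.48). The counts cover the whole gene, transcript ends outside the deletion included, so they do not show whether the deleted part was absent, and every direction in the knockout experiment holds only as the libraries are labelled. For the AAV libraries Atf3 was at 10.1, 13.3 and 14.1 CPM in the shCtrl hearts and 21.2, 12.1 and 16.5 CPM in the shAtf3 hearts (adjusted p = 0.419), and the column names of that table read the opposite way to the sample titles. The titles were followed, so every direction in the AAV experiment holds only if they are right. Defining markers of cardiomyocytes were high in all 14 libraries, with a sum over 7 genes between 44570 and 65060 CPM (CPM, a library's normalised share of reads per gene).

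The promoter sequence of the members was not used in choosing them. RefSeq promoter windows of 300 bases (GRCm38.p6, 250 bases before and 50 after the start site) were given for 25 of the 33 members. The interferon-stimulated response element, searched as GAAANNGAAA on both strands, was in the windows of 14 of these 25 genes (56%), beside 3.99% of 27025 genes with a window. The gamma-activated site, TTCNNNGAA, which reads the same on both strands in its fixed letters, was in 8 of 25 (32%), beside 9.55% of all genes. The ATF/CRE palindrome TGACGTCA, to which ATF family proteins can bind, was in 0 of 25, beside 2.03% of all genes. At a share that low, 0 of 25 does not set the members apart from all genes. A match of letters is a description of the window and not a measured binding site. Windows of 6 members are shown in full, 1 for each of 6 roles, because they place the element in a transcription factor, a sensor and 4 effectors. Capitals mark the interferon-stimulated response element, runs that overlap included.
Ifit1 (chr19:34640639-34640938, strand plus): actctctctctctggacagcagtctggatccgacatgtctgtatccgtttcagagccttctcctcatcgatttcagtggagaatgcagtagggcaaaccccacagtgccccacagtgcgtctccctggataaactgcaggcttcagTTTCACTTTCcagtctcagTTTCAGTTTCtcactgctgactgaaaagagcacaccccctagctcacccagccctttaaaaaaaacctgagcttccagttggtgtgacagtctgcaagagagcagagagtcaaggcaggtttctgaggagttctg
Isg15 (chr4:156200769-156201068, strand minus): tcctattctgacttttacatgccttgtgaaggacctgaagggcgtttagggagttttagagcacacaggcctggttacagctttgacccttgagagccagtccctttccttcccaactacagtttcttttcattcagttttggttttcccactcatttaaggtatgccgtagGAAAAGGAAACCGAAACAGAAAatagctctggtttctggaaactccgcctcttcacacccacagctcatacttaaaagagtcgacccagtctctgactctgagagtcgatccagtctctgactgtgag
Stat2 (chr10:128270248-128270547, strand plus): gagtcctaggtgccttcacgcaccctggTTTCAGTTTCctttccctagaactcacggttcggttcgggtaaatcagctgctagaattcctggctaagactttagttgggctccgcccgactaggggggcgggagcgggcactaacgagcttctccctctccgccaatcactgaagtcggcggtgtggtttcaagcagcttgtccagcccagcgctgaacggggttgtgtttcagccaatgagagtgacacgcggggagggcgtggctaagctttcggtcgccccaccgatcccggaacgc
Rsad2 (chr12:26456403-26456702, strand minus): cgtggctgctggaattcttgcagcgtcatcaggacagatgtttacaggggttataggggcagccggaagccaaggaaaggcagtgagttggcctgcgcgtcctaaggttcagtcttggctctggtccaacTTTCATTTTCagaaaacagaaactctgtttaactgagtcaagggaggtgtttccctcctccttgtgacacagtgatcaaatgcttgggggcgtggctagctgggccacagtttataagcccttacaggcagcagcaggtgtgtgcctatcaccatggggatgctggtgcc
Ifih1 (chr2:62646206-62646505, strand minus): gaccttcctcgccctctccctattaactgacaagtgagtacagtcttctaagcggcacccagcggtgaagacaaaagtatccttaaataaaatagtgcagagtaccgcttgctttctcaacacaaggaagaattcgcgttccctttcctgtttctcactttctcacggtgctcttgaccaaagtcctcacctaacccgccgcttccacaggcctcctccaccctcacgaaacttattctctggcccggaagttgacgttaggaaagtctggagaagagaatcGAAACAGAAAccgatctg
Gbp2 (chr3:142620413-142620712, strand plus): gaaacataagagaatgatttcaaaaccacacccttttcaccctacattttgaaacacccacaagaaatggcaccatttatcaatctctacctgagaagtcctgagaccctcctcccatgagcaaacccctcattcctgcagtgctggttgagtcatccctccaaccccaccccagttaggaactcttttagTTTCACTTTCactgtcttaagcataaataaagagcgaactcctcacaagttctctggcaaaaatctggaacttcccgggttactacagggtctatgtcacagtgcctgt
Reading 5′ to 3′, the element nearest the start site ended 75 bases before it in Ifit1, 56 in Isg15, 212 in Stat2, 110 in Rsad2 and 49 in Gbp2, and lay after the start site in Ifih1. Isg15 held 3 overlapping matches and Ifit1 held 2 separate ones.

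Levels in the control groups, which carry the complex I defect too, differed widely between members. On a scale of CPM per kilobase of merged exon, Bst2, which encodes the membrane protein tetherin, had the highest level in both control groups, 19.8 ± 2.01 (SD, n = 4) in Atf3+/+FS6KD and 25.5 ± 2.18 (SD, n = 3) in shCtrl hearts. Lgals3bp, a secreted galectin-binding glycoprotein, was next at 12.7 ± 0.93 and 14.1 ± 0.72, and its gap to Bst2 was larger than both SDs together. Gbp2 (11.4 ± 4.49 and 11.7 ± 2.07) and Ifi35 (10.5 ± 1.54 and 11.0 ± 0.27) followed in the Atf3+/+FS6KD group, within 1 SD of each other. In the shCtrl group Ifit3, at 13.3 ± 5.21, lay between Lgals3bp and Gbp2, and Lgals3bp, Gbp2 and Ifi35 were all within that SD of it. Mx1, a dynamin-like antiviral GTPase, was the lowest at 0.13 ± 0.03 and 0.24 ± 0.14, below Zbp1 (0.49 ± 0.12 and 0.69 ± 0.20) and Dhx58 (0.70 ± 0.15 and 0.91 ± 0.20). Copy rows of 4 members, Igtp, Irgm1, Irgm2 and Trim25, took a share of their reads, and their per-length levels leave those reads out.

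None of the members passed the test for an effect of the Atf3 knockout. Mx1, at no more than 0.71 CPM, stayed under the filter of more than 1 CPM in at least 1 library, and of the 32 members tested 22 had a higher and 10 a lower mean in the libraries labelled Atf3-/-FS6KD, or 28 and 4 when scaled by library size alone, which set the median of all genes at 0.06 on the log2 scale. At an adjusted p below 0.05 (edgeR's two-sided quasi-likelihood test, adjusted by Benjamini-Hochberg over all 15592 genes tested) 0 members were called, as were 0% of all genes. At an unadjusted p below 0.05, 2 members were higher (Xaf1 and Rsad2), beside 5.41% of all genes, and 0 were lower, beside 4.69%. The groups did not overlap for 1 member, higher in Atf3-/-FS6KD (Xaf1), beside 3.08% of all genes, and for 0 members in the other direction, beside 2.63%. The median log2 fold change was 0.09 over the members and 0.0005 over all genes. Without Atf3+/+FS6KD replicate 1 the median was 0.04, with 18 of 32 members higher and 1 at an unadjusted p below 0.05.

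By contrast, all 33 members had a lower mean in the libraries labelled shAtf3 than in those labelled shCtrl in the AAV experiment, but none passed the test. Over the 15225 genes tested, 0.539% were called at an adjusted p below 0.05, and of the 33 members 0 were. Of the members, 8 were lower at an unadjusted p below 0.05, beside 7.65% of all genes, and 0 were higher, beside 5.05%. The groups did not overlap for 4 members, all lower in shAtf3 (Ifit2, Ifit3, Bst2 and Parp9), beside 9.94% of all genes, and for 0 members in the other direction, beside 8.48%. The median log2 fold change was -0.24 over the members and -0.0029 over all genes. DESeq2 called 1 of the 33, Bst2 (adjusted p = 0.0332), beside 2.02% of all genes called by that tool. Without shCtrl replicate 3, the median of the 32 members still tested was -0.06, 6 of them were higher, and 2 were lower at an unadjusted p below 0.05, beside 9.32% of all genes. That count was 1 without shAtf3 replicate 1 (beside 6.12%), 2 without shAtf3 replicate 2 (5.68%), 14 without shCtrl replicate 2 (6.65%), 14 with no filter (5.6%) and 15 with replicate number as a block (7.61%).

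**Figure D1:**
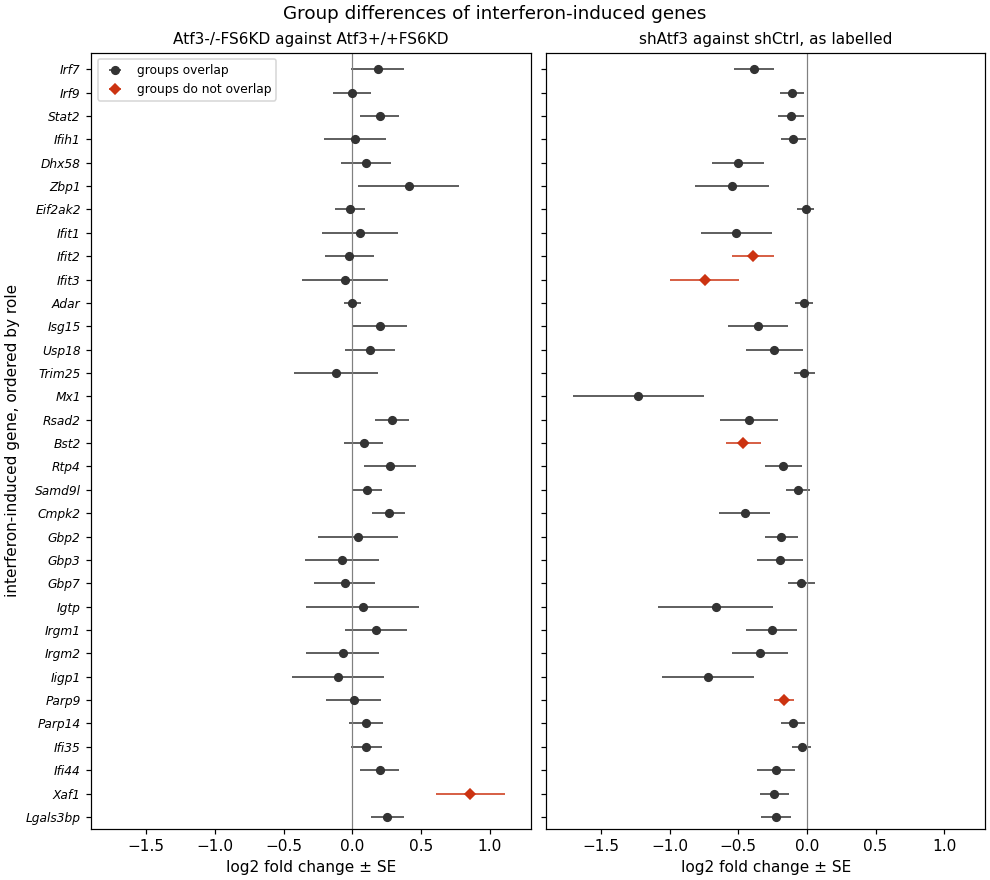
Log2 fold change (horizontal axis) ± SE of each member in the knockout experiment (left) and the AAV experiment (right), with members in order of their role, and red diamonds where the groups do not overlap. Points lie on both sides of 0 on the left, with Xaf1 apart at 0.86, and all 33 lie below 0 on the right. Mx1 was not tested in the knockout experiment.

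Members were often highest in the same hearts. Of the 32 members tested in the knockout experiment, 23 were at their highest in Atf3-/-FS6KD replicate 2, 4 in Atf3+/+FS6KD replicate 2, and 14 at their lowest in Atf3+/+FS6KD replicate 4. Of the 33 members in the AAV experiment, 29 were at their highest in shCtrl replicate 3 and 20 at their lowest in shAtf3 replicate 1. The SD within groups, on the log2 CPM scale, had a median of 0.31 over the members and 0.15 over all genes tested in the knockout experiment, and of 0.20 and 0.12 in the AAV experiment. Between the lowest and the highest library a member differed by a median of 1.83-fold in the knockout and 1.72-fold in the AAV experiment.

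**Figure D2:**
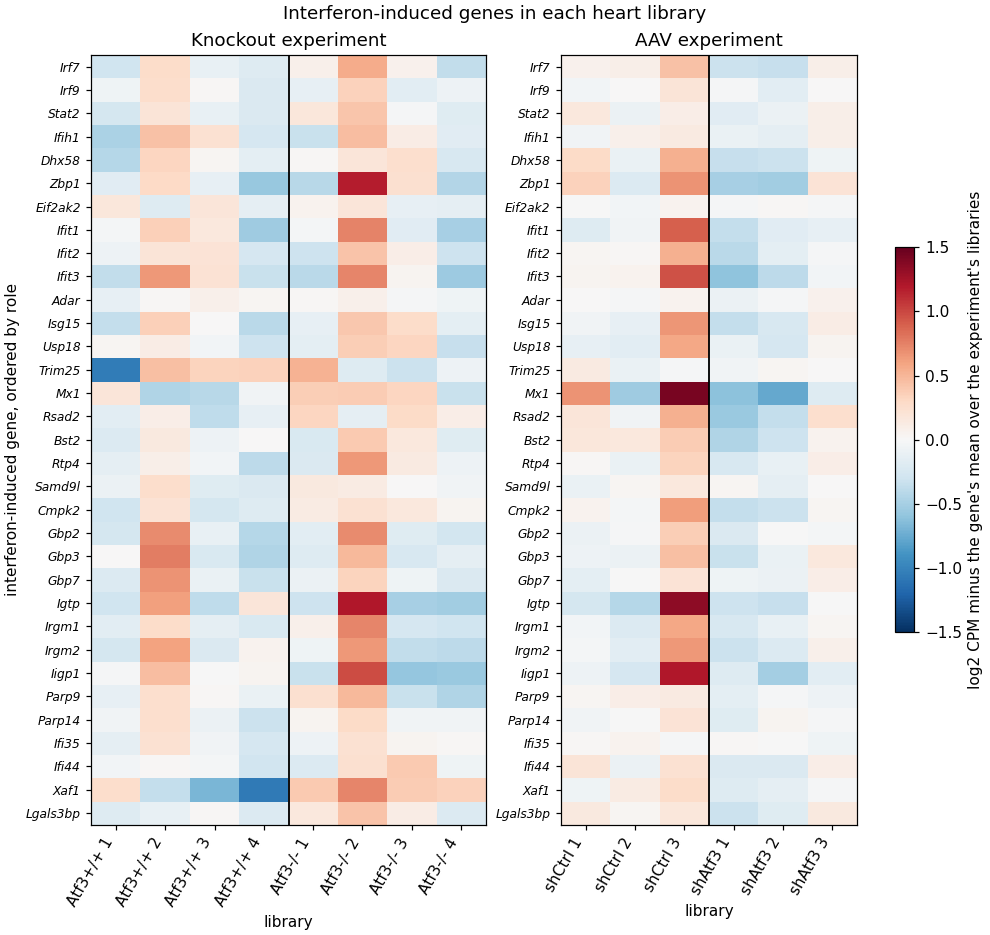
Each cell is a member's log2 CPM in 1 library minus its mean over that experiment's libraries (colour, from -1.5 in blue to 1.5 in red), with a black line between the groups. Red columns stand out at Atf3-/-FS6KD replicate 2, Atf3+/+FS6KD replicate 2 and shCtrl replicate 3, and run across roles, while Adar and Eif2ak2 stay pale.

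Averaged over the members, log2 CPM was 3.65, 4.11, 3.77 and 3.60 in the Atf3+/+ hearts and 3.79, 4.29, 3.82 and 3.63 in the Atf3-/- hearts. Replicate 2 was the highest of both genotypes, and the other 6 libraries overlapped between the genotypes. Without Atf3-/-FS6KD replicate 2 the median log2 fold change of the members was -0.04, with 14 of 32 higher, and without Atf3+/+FS6KD replicate 2 it was 0.22, with 30 of 32 higher. Leaving out replicate 2 of both genotypes together, chosen after the data were seen, gave 0.07, with 22 of 32 higher. For the AAV hearts the mean was 3.70, 3.60 and 4.12 in shCtrl replicates 1 to 3 and 3.42, 3.47 and 3.70 in shAtf3 replicates 1 to 3, so that shAtf3 replicate 3 lay between the lower 2 shCtrl libraries.

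**Figure D3:**
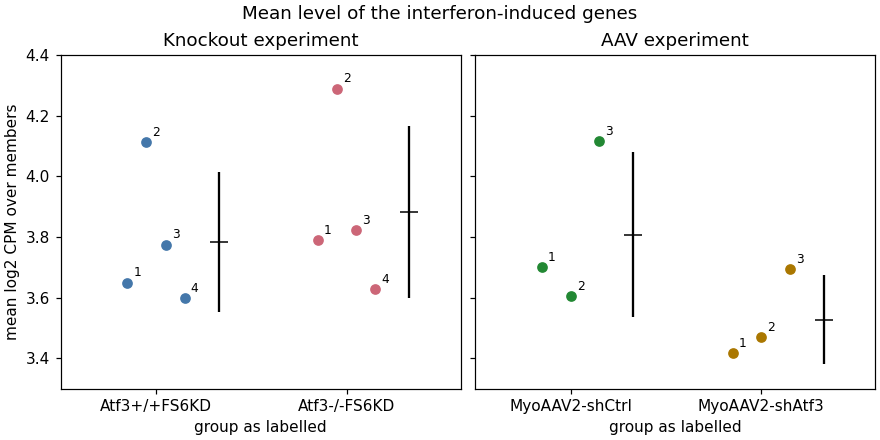
Mean log2 CPM over the members (vertical axis) in each library, with its replicate number beside the point, and the mean ± SD of each group in black. Group means were 3.78 ± 0.23 and 3.88 ± 0.28 (n = 4 each) in the knockout experiment and 3.81 ± 0.27 and 3.53 ± 0.15 (n = 3 each) in the AAV experiment. The highest library was replicate 2 in both genotypes and replicate 3 in both AAV groups.

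Markers of immune cells were also high in some of these libraries. All 7 T or NK cell markers were at their highest of the knockout experiment in Atf3-/-FS6KD replicate 2, where they summed to 8.17 CPM, against 2.58 to 3.36 CPM in Atf3+/+FS6KD and 2.66 to 3.48 CPM in the other 3 Atf3-/-FS6KD libraries, and 3 of the 7 passed the filter. The 10 macrophage markers summed to 564.4 CPM in that library, 385.4 to 492.8 CPM in the other 3, and 357.3 to 438.3 CPM in Atf3+/+FS6KD, where replicate 2 was at 431.9 CPM. The 4 monocyte markers summed to 21.3 CPM in Atf3+/+FS6KD replicate 2 against 13.2 to 14.8 CPM in the rest of that group, and to 21.4 CPM in Atf3-/-FS6KD replicate 2 against 14.98 to 17.1 CPM. The 4 B cell markers were highest in Atf3-/-FS6KD replicate 2 as well, at 3.15 CPM against 1.497 to 2.72 CPM in the other 7 libraries. In shCtrl replicate 3 the T or NK cell sum was 2.53 CPM, the lowest of its group, and the 5 erythrocyte markers summed to 752.5 CPM, the highest of the 6 libraries. Between the genotypes, 9 of 10 macrophage markers had a higher mean in Atf3-/-FS6KD (median log2 fold change 0.29), as had 6 of 6 fibroblast markers (0.26, 4 at an unadjusted p below 0.05), which summed to 2622 to 3158 CPM against 2080 to 3095 CPM in Atf3+/+FS6KD, and 0 of either list were called. Of the 4 monocyte markers 3 were higher, Ccr2 by the most (log2 fold change 0.89, adjusted p = 0.383). Of the 7 cardiomyocyte markers 6 were lower (median log2 fold change -0.16). The other, Actc1, was higher and had the largest change of the 7 (log2 fold change 0.47, adjusted p = 0.317). Again 0 of either list were called. Between the AAV groups, macrophage markers summed to 529.5 to 594.3 CPM in shCtrl and 473.7 to 525.4 CPM in shAtf3 (9 of 10 lower), and the 6 fibroblast markers to 2744 to 3527 CPM and 2304 to 2475 CPM (6 of 6 lower, 1 called). The plasmacytoid dendritic cell markers summed to no more than 0.69 CPM in any library, with Ccr9 and Klk1 at 0 in several. At that low level their sums were 0.287 to 0.377 CPM in shCtrl and 0.032 to 0.272 CPM in shAtf3. The part of these cells in the members' levels was not tested.

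The 3 transcription factors among the members did not separate by Atf3 status. Irf7, which drives the interferon alpha genes, was at 11.6, 17.3, 13.3 and 12.5 CPM in the Atf3+/+ hearts and 15.1, 21.2, 15.03 and 11.1 CPM in the Atf3-/- hearts. Both groups were highest in replicate 2 and they overlapped (log2 fold change 0.19, SE 0.19, adjusted p = 0.765). Stat2, which acts with IRF9 in the type I complex, was at 16.00, 22.04, 17.8 and 16.6 CPM in the Atf3+/+ hearts and 21.7, 25.6, 18.9 and 17.02 CPM in the Atf3-/- hearts, with overlap again (log2 fold change 0.20, SE 0.14, adjusted p = 0.654). Irf9, which gives that complex its DNA contact, had means of 16.9 ± 2.43 and 16.9 ± 2.98 (CPM ± SD, n = 4 each). After AAV injection Irf7 was at 12.8, 13.01 and 16.6 CPM in the shCtrl hearts and 9.81, 9.68 and 13.05 CPM in the shAtf3 hearts. The shAtf3 libraries were lower in 2 of 3, and replicate 3 lay within the shCtrl range (log2 fold change -0.38, SE 0.14, adjusted p = 0.32). Stat2 and Irf9 had log2 fold changes of -0.12 and -0.11 there, with adjusted p = 0.674 and 0.664.

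Among the sensors of foreign nucleic acid, Ifih1 (MDA5) and Dhx58 (LGP2) bind double-stranded RNA, Zbp1 binds Z-form nucleic acid, and Eif2ak2 is the double-stranded RNA kinase PKR that halts translation. Eif2ak2 was at 29.3, 22.9, 29.7 and 23.7 CPM in the Atf3+/+ hearts and 27.1, 29.6, 24.1 and 23.9 CPM in the Atf3-/- hearts. No library stood apart and the groups overlapped (log2 fold change -0.02, SE 0.11, adjusted p = 0.968). Its AAV values were 27.5, 26.96 and 28.7 CPM in the shCtrl hearts and 27.3, 27.98 and 27.4 CPM in the shAtf3 hearts, a range of 1.07-fold over the 6 libraries (log2 fold change -0.01, SE 0.06, adjusted p = 0.97). The other 3 sensors had log2 fold changes from 0.02 (Ifih1) to 0.41 (Zbp1, SE 0.37) in the knockout experiment, with adjusted p from 0.723 to 0.982. Zbp1 was at 4.18 CPM in Atf3-/-FS6KD replicate 2 and between 1.25 and 2.28 CPM in the other 7 libraries. Dhx58 was, for the AAV comparison, among the members at an unadjusted p below 0.05 (log2 fold change -0.50, SE 0.19, adjusted p = 0.32), while Zbp1 (-0.55) and Ifih1 (-0.10) were not.

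The IFIT proteins bind viral RNA ends and block their translation, and ADAR edits adenosine to inosine in double-stranded RNA. Ifit1 was at 7.63, 9.97, 8.69 and 5.34 CPM in the Atf3+/+ hearts and 7.58, 13.1, 6.88 and 5.49 CPM in the Atf3-/- hearts. Its 2 groups overlapped (log2 fold change 0.06, SE 0.28, adjusted p = 0.961). Ifit3 was at 11.05, 22.3, 16.6 and 11.3 CPM in the Atf3+/+ hearts and 10.8, 23.8, 14.7 and 9.81 CPM in the Atf3-/- hearts, with replicate 2 the highest of both genotypes (log2 fold change -0.05, SE 0.31, adjusted p = 0.968). Ifit2 overlapped as well (log2 fold change -0.02). With AAV, Ifit3 was at 17.8, 17.95 and 33.6 CPM in the shCtrl hearts and 11.4, 13.2 and 16.8 CPM in the shAtf3 hearts. Every shAtf3 library was below every shCtrl library, the nearest values being 16.8 and 17.8 CPM, and the test was not passed (log2 fold change -0.75, SE 0.25, adjusted p = 0.26). Ifit2, at 22.5, 22.2 and 31.8 CPM in the shCtrl hearts and 16.6, 19.9 and 21.7 CPM in the shAtf3 hearts, also did not overlap (log2 fold change -0.39, SE 0.15, adjusted p = 0.332). Ifit1, at 7.87, 8.64 and 16.6 CPM in the shCtrl hearts and 6.99, 7.98 and 8.22 CPM in the shAtf3 hearts, did overlap, since only shCtrl replicate 3 was high (log2 fold change -0.51, SE 0.26, adjusted p = 0.45). With shCtrl replicate 3 left out, it was -0.38 for Ifit3, -0.20 for Ifit2 and -0.10 for Ifit1. Adar varied little, between 25.6 and 29.6 CPM over all 14 libraries, with log2 fold changes of -0.0014 (SE 0.06) in the knockout and -0.02 (SE 0.07) in the AAV experiment.

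ISG15 is a ubiquitin-like protein, USP18 removes it from its targets and also damps the type I receptor, and TRIM25 is a ligase that acts in RIG-I signalling. Isg15 was at 4.02, 6.59, 5.17 and 3.89 CPM in the Atf3+/+ hearts and 4.72, 6.83, 6.26 and 4.64 CPM in the Atf3-/- hearts. The values interleave (log2 fold change 0.20, SE 0.20, adjusted p = 0.755). With AAV it was at 5.24, 4.996 and 8.57 CPM in the shCtrl hearts and 4.24, 4.58 and 5.88 CPM in the shAtf3 hearts, with shCtrl replicate 3 apart from the other 5 (log2 fold change -0.36, SE 0.22, adjusted p = 0.543). Usp18 differed by 0.13 (SE 0.18) and -0.24 (SE 0.21) on the log2 scale, and without shCtrl replicate 3 the second value was 0.04.

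Trim25 has to be read with its copy row, Trim25_1, since the reads were divided between the pair differently from heart to heart. The Trim25 row was at 11.5, 32.5, 29.97 and 30.3 CPM in the Atf3+/+ hearts and 34.2, 20.8, 19.1 and 22.6 CPM in the Atf3-/- hearts. The Trim25_1 row was at 33.1, 10.8, 9.55 and 8.99 CPM in the Atf3+/+ hearts and 11.3, 20.5, 18.9 and 21.4 CPM in the Atf3-/- hearts. The copy row took 74.3% of the summed counts in Atf3+/+FS6KD replicate 1, 48.6% to 49.8% in Atf3-/-FS6KD replicates 2 to 4, and 22.9% to 25.02% in the other 4 libraries of that experiment. Neither row passed the test (log2 fold change -0.12, SE 0.31, and 0.22, SE 0.42). Summed, the rows averaged 41.7 ± 2.56 CPM for Atf3+/+ and 42.2 ± 3.29 CPM for Atf3-/- hearts (SD, n = 4 each), a log2 fold change of 0.02 with SE 0.07. Among the AAV libraries the copy row took 23.1% to 25.7% in every library, and the sum was 39.6 ± 3.63 CPM in shCtrl and 38.4 ± 1.48 CPM in shAtf3 (SD, n = 3 each). In the knockout experiment the division of reads between the rows varied much more than their sum, and in the AAV experiment it did not. The cause of the uneven division was not tested.

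**Figure D4:**
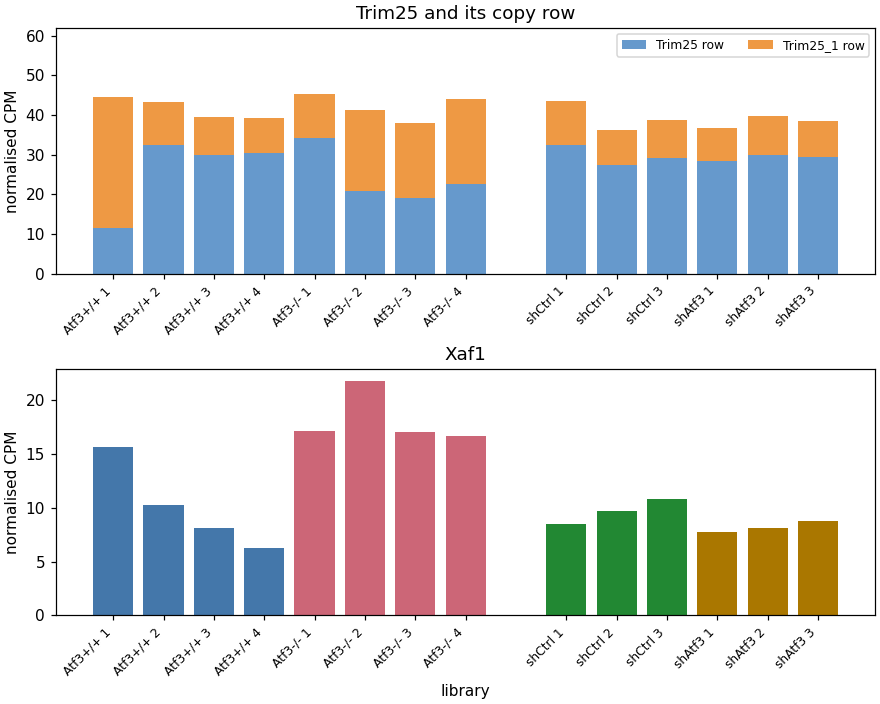
Normalised CPM (vertical axis, from 0) in each library. Above, the Trim25 row (blue) and its copy row Trim25_1 (orange) are stacked, and their sum stays between 36.4 and 45.4 CPM while the copy's share varies in the knockout experiment. Below, Xaf1 lies between 16.7 and 21.8 CPM in the 4 libraries labelled Atf3-/-FS6KD and at 15.7 CPM in Atf3+/+FS6KD replicate 1, above all the rest.

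Xaf1 was the member with the smallest p in the knockout experiment. It encodes XIAP-associated factor 1, an interferon-induced promoter of apoptosis, and lies on chromosome 11 (GRCm38.p6, chr11:72301461-72313733), 16.7 Mb from Trim25. Xaf1 was at 15.7, 10.3, 8.13 and 6.27 CPM in the Atf3+/+ hearts and 17.2, 21.8, 17.1 and 16.7 CPM in the Atf3-/- hearts. Every library labelled knockout was above every library labelled Atf3+/+FS6KD, with replicate 1 of the latter closest (log2 fold change 0.86, SE 0.25, adjusted p = 0.368). DESeq2 gave an adjusted p of 0.0451, calling 1.33% of all genes, and leaving out Atf3+/+FS6KD replicate 1, which also stood apart for Atf3 and Trim25, gave a log2 fold change of 1.16 with adjusted p = 0.113 in edgeR. With AAV, Xaf1 was at 8.52, 9.72 and 10.8 CPM in the shCtrl hearts and 7.76, 8.11 and 8.77 CPM in the shAtf3 hearts, all below the Atf3-/-FS6KD range on tables normalised apart (log2 fold change -0.24, SE 0.11, adjusted p = 0.411).

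The other induced proteins were Lgals3bp and the nuclear or cytoplasmic proteins Ifi35 and Ifi44. Lgals3bp was at 34.5, 36.3, 39.9 and 34.1 CPM in the Atf3+/+ hearts and 43.7, 52.7, 42.6 and 34.1 CPM in the Atf3-/- hearts. Of the 4 Atf3-/-FS6KD libraries, 3 were above all Atf3+/+FS6KD libraries and replicate 4 was not (log2 fold change 0.26, SE 0.12, adjusted p = 0.515). Its AAV values were 40.8, 37.8 and 41.6 CPM in the shCtrl hearts and 29.6, 32.6 and 40.8 CPM in the shAtf3 hearts, with shAtf3 replicate 3 within the shCtrl range (log2 fold change -0.22, SE 0.11, adjusted p = 0.446). Ifi35 and Ifi44 had log2 fold changes of 0.10 and 0.20 in the knockout and -0.04 and -0.23 in the AAV experiment.

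Bst2, Rsad2, Mx1, Rtp4, Samd9l and Cmpk2 encode effectors that act at membranes, on virus particles or on nucleotides. Bst2 tethers budding virions and was at 15.8, 20.2, 17.3 and 18.3 CPM in the Atf3+/+ hearts and 15.5, 23.9, 20.3 and 16.1 CPM in the Atf3-/- hearts, with overlap (log2 fold change 0.08, SE 0.14, adjusted p = 0.869). Among the AAV libraries it was at 22.01, 21.8 and 25.3 CPM in the shCtrl hearts and 14.2, 15.7 and 20.3 CPM in the shAtf3 hearts. All 3 shAtf3 libraries were below all 3 shCtrl libraries, the nearest being 20.3 and 21.8 CPM, and its p was the smallest of the members (log2 fold change -0.46, SE 0.13, adjusted p = 0.193). Leaving out 1 library at a time gave between -0.62 and -0.36. Rsad2 (viperin), which makes a chain-terminating nucleotide, was at 21.8, 26.2, 18.7 and 22.3 CPM in the Atf3+/+ hearts and 30.5, 22.2, 29.7 and 26.2 CPM in the Atf3-/- hearts. It was highest in Atf3-/-FS6KD replicate 1, and its groups overlapped (log2 fold change 0.29, SE 0.12, adjusted p = 0.477). Cmpk2, its neighbour on chromosome 12 and a mitochondrial nucleotide kinase, had a log2 fold change of 0.26 (SE 0.12) in the knockout and -0.45 (SE 0.19) in the AAV experiment. Mx1 was at 0.869, 0.377 and 1.46 CPM in the shCtrl hearts and 0.356, 0.32 and 0.476 CPM in the shAtf3 hearts, close to the filter, and its log2 fold change of -1.23 had SE 0.48. Rtp4 and Samd9l had adjusted p between 0.638 and 0.823 in both experiments.

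The guanylate-binding proteins Gbp2, Gbp3 and Gbp7 lie side by side on chromosome 3 and coat pathogen-containing vacuoles. Gbp2 was at 23.03, 45.2, 25.7 and 20.5 CPM in the Atf3+/+ hearts and 24.8, 45.3, 24.4 and 22.9 CPM in the Atf3-/- hearts. Replicate 2 of each genotype was above all 6 other libraries, and the group means differed by less than their SD (log2 fold change 0.04, SE 0.29, adjusted p = 0.975). Gbp3 was at 14.6, 24.8, 12.5 and 10.6 CPM in the Atf3+/+ hearts and 12.8, 20.5, 12.4 and 13.3 CPM in the Atf3-/- hearts, with the same pair of libraries on top (log2 fold change -0.08, SE 0.27, adjusted p = 0.944). Gbp7 differed by -0.06 (SE 0.22). With AAV, Gbp2 was at 25.7, 27.2 and 35.4 CPM in the shCtrl hearts and 23.6, 27.2 and 26.8 CPM in the shAtf3 hearts, with shCtrl replicate 3 above the other 5 libraries (log2 fold change -0.19, SE 0.12, adjusted p = 0.57). Gbp3 had a log2 fold change of -0.20 there, and of -0.0005 without shCtrl replicate 3.

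The immunity-related GTPases Igtp, Irgm1, Irgm2 and Iigp1 are strongly induced by interferon gamma in mice, and varied widely between hearts. Igtp was at 8.23, 15.5, 7.73 and 11.5 CPM in the Atf3+/+ hearts and 8.15, 23.2, 7.12 and 7.05 CPM in the Atf3-/- hearts. Atf3-/-FS6KD replicate 2 was 2.85 times the median of the other 7 libraries, and the groups overlapped (log2 fold change 0.08, SE 0.41, adjusted p = 0.964). With AAV, Igtp was at 7.12, 6.35 and 21.6 CPM in the shCtrl hearts and 6.87, 6.73 and 8.496 CPM in the shAtf3 hearts. Here shCtrl replicate 3 was 3.15 times the median of the other 5 libraries (log2 fold change -0.67, SE 0.42, adjusted p = 0.552), and without it the log2 fold change was 0.13. Irgm1, a regulator of the other GTPases, was at 10.7, 14.5, 10.95 and 10.2 CPM in the Atf3+/+ hearts and 12.6, 19.9, 10.1 and 9.77 CPM in the Atf3-/- hearts (log2 fold change 0.17, SE 0.23, adjusted p = 0.825), again highest in replicate 2. Iigp1 reached 85.3 CPM in Atf3-/-FS6KD replicate 2 and 81.7 CPM in shCtrl replicate 3, and its log2 fold changes were -0.10 and -0.72. Copy rows held 49.98% to 50.06% of the summed counts of Igtp, 46.4% to 47.9% of Irgm2 and 59.5% to 61.3% of Irgm1 (3 rows), nearly the same in every library, and with the rows summed the log2 fold changes of these 3 genes were 0.08, -0.07 and 0.16 in the knockout and -0.67, -0.33 and -0.25 in the AAV experiment.

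**Figure D5:**
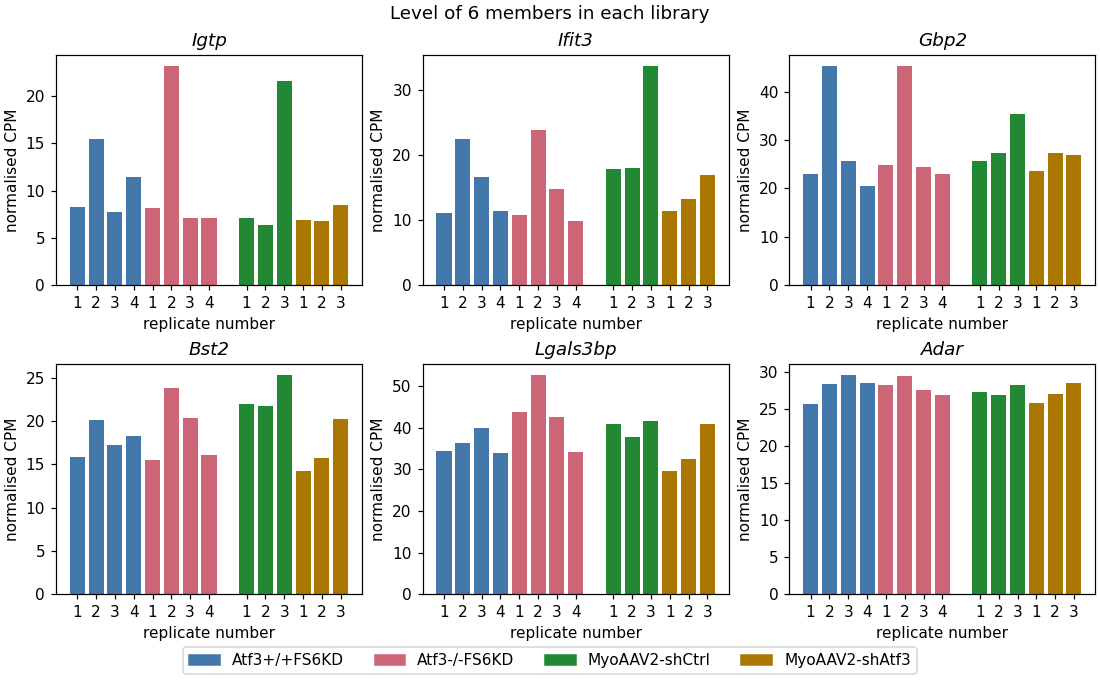
Normalised CPM (vertical axis, from 0) of 6 members in each library, coloured by group and numbered by replicate. Igtp, Ifit3 and Gbp2 are high in replicate 2 of both genotypes and in shCtrl replicate 3, Bst2 and Lgals3bp vary less, and Adar lies between 25.6 and 29.6 CPM in all 14 libraries.

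Parp9 and Parp14 encode proteins of the ADP-ribosyltransferase family. Parp9 was at 22.8, 24.00 and 24.6 CPM in the shCtrl hearts and 20.2, 22.2 and 21.2 CPM in the shAtf3 hearts in the AAV experiment. Its groups did not overlap although the difference was small (log2 fold change -0.17, SE 0.07, adjusted p = 0.371), and the SD within groups was 0.06 on the log2 scale. In the knockout experiment its log2 fold change was 0.01 (SE 0.20). Parp14 differed by 0.10 and -0.10 in the knockout and AAV experiments.

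By their medians, members whose promoter window held the interferon-stimulated response element varied more between hearts than members without it. In Atf3-/-FS6KD replicate 2 the 14 members with the element were at a median of 1.58 times the median of the other libraries, and the 11 members with a window but no element at 1.22 times. In shCtrl replicate 3 the corresponding values were 1.48 and 1.15. The median SD within groups (log2) was 0.38 with and 0.21 without the element in the knockout experiment, and 0.29 and 0.14 in the AAV experiment. The median log2 fold change between groups was 0.05 with and 0.11 without the element in the knockout experiment, and -0.30 and -0.22 in the AAV experiment. Both libraries named here were those in which most members were highest, and they also enter the SDs within groups. These medians are a description and carry no test.

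The difference between the experiments was tested in 1 fit of all 14 libraries, as the knockout effect minus the shAtf3 effect. Of the 33 members, 30 had a positive difference, with a median of 0.42 on the log2 scale beside 0.0009 over all genes. At an adjusted p below 0.05, 0 members were called, beside 0.166% of 15708 genes, and the smallest adjusted p was 0.123 (Xaf1, difference 1.10, SE 0.33). Of the members, 7 were positive at an unadjusted p below 0.05, beside 9.43% of all genes, and 0 negative, beside 7.53%. The 7 positive members were Xaf1, Cmpk2, Mx1, Rsad2, Lgals3bp, Bst2 and Dhx58. Leaving out 1 library at a time moved that count between 3 and 11. It was 3 of 32 without shCtrl replicate 3 (beside 9.3% of all genes) and 11 without Atf3+/+FS6KD replicate 2 (9.05%). With replicate number as a block it was 15 (10.5%). DESeq2 called 1 member, beside 4.26% of all genes, and so did edgeR without Atf3+/+FS6KD replicate 1, beside 0.427%, Xaf1 in both. Of the 32 members tested in both experiments, 22 were higher in the knockout and lower in the AAV experiment and 10 were lower in both, so that 68.8% had opposite signs, beside 63.4% of all genes. All of these values depend on the direction of the AAV comparison. With the AAV groups as the column names read, an alternative chosen after the data were seen, 26 of the 33 differences were negative and 7 positive, with a median of -0.13 beside -0.0033 over all genes. Then 0 members were called (0% of all genes), 0 were positive and 0 negative at an unadjusted p below 0.05, beside 1.97% and 2.17% of all genes, and 10 of 32 (31.2%) had opposite signs in the experiments, beside 36.6% of all genes.

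A wider list of 102 other genes of the pathway was read in the same way. Of the 7 interferon genes on it, 6 (Ifnb1, Ifna1, Ifna2, Ifna4, Ifnk and Ifne) had 0 counts in every library, which allows up to 3 counts or 0.022 to 0.0997 CPM. Ifng, made by T and NK cells, had 7 counts in Atf3-/-FS6KD replicate 2 and 0 to 4 in the other 13 libraries. The receptors were present in every heart. Ifnar1 was at 42.3, 43.2, 38.03 and 37.8 CPM in the Atf3+/+ hearts and 44.8, 47.5, 44.3 and 42.5 CPM in the Atf3-/- hearts (log2 fold change 0.15, SE 0.07, adjusted p = 0.485). Ifngr2 was at 281.4, 264.8, 267.7 and 245.8 CPM in the Atf3+/+ hearts and 225.6, 244.05, 228.3 and 247.7 CPM in the Atf3-/- hearts (log2 fold change -0.16, SE 0.06, adjusted p = 0.425). Ifnar2, Ifngr1 and Irf1 had log2 fold changes between 0.07 and 0.12 in the knockout and between -0.20 and -0.03 in the AAV experiment, where Ifnar1 was at -0.04 and Ifngr2 at 0.04.

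Of the wider list, 92 genes were tested in the knockout experiment, of which 70 were higher, with 0 called, 7 higher and 3 lower at an unadjusted p below 0.05 and a median log2 fold change of 0.11. Over all genes of that experiment 50.2% were higher, and 5.41% were higher and 4.69% lower at an unadjusted p below 0.05. The 3 with the smallest p were Ikbke, a kinase that activates IRF3, Gbp6 and Shisa5. Ikbke was at 0.574, 0.831, 0.847 and 0.657 CPM in the Atf3+/+ hearts and 1.70, 1.31, 1.36 and 1.12 CPM in the Atf3-/- hearts. The groups did not overlap (log2 fold change 0.90, SE 0.20, adjusted p = 0.277), and DESeq2 gave an adjusted p of 0.0367. Ikbke lies on chromosome 1, 59.9 Mb from Atf3. Gbp6 (log2 fold change 0.39, SE 0.11, adjusted p = 0.365) and Shisa5 (log2 fold change 0.30, SE 0.09, adjusted p = 0.376) did not overlap either. Of the same list, 90 genes were tested in the AAV experiment, 75 were lower, 0 called, 14 lower and 1 higher at an unadjusted p below 0.05, with a median of -0.13. Over all genes there, 49.1% were higher, 0.539% were called, and 7.65% were lower and 5.05% higher at an unadjusted p below 0.05. Ifi27l2a, an interferon-induced protein, was at 23.2, 24.1 and 26.8 CPM in the shCtrl hearts and 18.02, 16.7 and 21.4 CPM in the shAtf3 hearts (log2 fold change -0.40, SE 0.10, adjusted p = 0.162). Mavs, the mitochondrial adaptor of the RNA sensors, was higher, at 110.5, 110.2 and 95.99 CPM in the shCtrl hearts and 119.7, 130.5 and 139.3 CPM in the shAtf3 hearts (log2 fold change 0.30, SE 0.08, adjusted p = 0.181). Cxcl10, a chemokine induced by interferon gamma, was at 0.966, 0.603 and 1.65 CPM in the shCtrl hearts and 0.415, 0.256 and 0.476 CPM in the shAtf3 hearts (log2 fold change -1.47, SE 0.42, adjusted p = 0.201). These 3 groups did not overlap, and DESeq2 gave adjusted p of 0.0343 for Ifi27l2a and 0.0344 for Mavs.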

How the data were processed

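Estimated counts per gene, deposited by the authors as 1 table for each experiment, were used (expected counts, of which 19.4% to 24.4% per library were not whole). Per the labels and the study's methods, libraries were made with a stranded mRNA kit and counted with featureCounts 2.0.0 on GRCm38.p6. The design had assumed whole counts, so values were rounded. Each experiment was fitted alone with edgeR 4.0.16 (R 4.3.3): TMM normalisation, genes above 1 CPM in at least 1 library, no covariates, the quasi-likelihood F-test (two-sided), and adjustment by Benjamini-Hochberg over all genes tested at a threshold of 0.05. SE was the fold change divided by the root of F, and log2 CPM took a prior count of 2. Levels were CPM, and exon lengths came from GENCODE M21. DESeq2 1.42.0, other scalings, no filter, merged copy rows, a replicate block and leaving libraries out were alternatives, and the fits were tested on simulated data. Of the rows, 2379 carried a symbol with an added number, 6 of them copies of 4 members.

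Samples were grouped and numbered by their titles. In the knockout experiment some column names carry other numbers, and the libraries titled replicate 2 have different column numbers in the genotypes. The labels name replicates but not separate litters or days, so p-values measure the spread between these samples. Replicates of a group differed by more than sampling noise. Deviations from the group means correlated between same-numbered libraries at r from 0.0064 to 0.145 in the knockout and -0.0004 to 0.151 in the AAV experiment. Between differently numbered libraries r was -0.244 to 0.190 and -0.178 to 0.0894. The labels give no pairing, so numbers were not taken as pairs. Whether same-numbered libraries shared a batch was not tested. The members and the wider and marker lists were chosen with earlier results of these data known. Genes described with values were 17 fixed rows, the members whose groups did not overlap, and from the wider list the 3 with the smallest p, 4 receptors and Irf1. Library values of Rsad2, Mx1, Zbp1 and Iigp1 were added after they had been seen. A gene that the rule also named is not reported here. Floors cover counting error only, while SD and SE include the spread between libraries. Depth is given in the results as ranges of totals, and the main fit held no term for the deeper and shallower libraries of the knockout experiment.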

Additional observations from a re-analysis of the deposited data

Results flagged for a closer look

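In the groups of 4 of the knockout experiment, a library was marked when its gap to the nearest of the other 3 was most of the group's whole range (Dixon's 95% value), which chance gives in about 1 of 20 groups. Of 64 groups of members 10 were marked (15.6%), beside 6.07% of the groups over all genes tested, and since the members share libraries they are not separate events. Atf3-/-FS6KD replicate 2 was marked for 6 members. It was at 21.4 CPM for Irf9 (others 14.99 to 15.9), 45.3 for Gbp2 (22.9 to 24.8), 20.5 for Gbp3 (12.4 to 13.3), 23.2 for Igtp (7.05 to 8.15), 85.3 for Iigp1 (29.1 to 34.6) and 21.8 for Xaf1 (16.7 to 17.2). Of the wider list only the 11 genes described with values in the results were looked at in this way, and among them it was marked for Ifnar2, at 35.4 CPM (32.8 in each of the others).

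Atf3+/+FS6KD replicate 2 was marked for 3 members, at 14.5 CPM for Irgm1 (others 10.2 to 11.0), 60.1 for Iigp1 (43.0 to 44.6) and 11.4 for Cmpk2 (8.01 to 8.57), and for Cxcl10, at 1.02 CPM (0.548 to 0.622). Atf3+/+FS6KD replicate 1 was marked low for Trim25, at 11.5 CPM (others 29.97 to 32.5), high for its copy row Trim25_1, at 33.1 CPM (8.99 to 10.8), and high for Atf3, at 25.8 CPM (6.36 to 6.91). The difference between the experiments passed an adjusted p of 0.05 for no member in edgeR on all 14 libraries, and for 1 (Xaf1) without Atf3+/+FS6KD replicate 1.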

How the results depend on the processing

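DESeq2 called 1 member, 1 wider-list gene and 208 genes in all in the knockout experiment (edgeR 0), 1, 2 and 308 in the AAV experiment (edgeR 0, 0 and 82), and 1 member in the difference between experiments. Those were 1.33%, 2.02% and, for the difference, 4.26% of all genes. For the counts that follow, at an unadjusted p below 0.05, the share of all genes in the same fit stands in brackets. Without the filter, 4 members were higher in the knockout experiment (4.15%) and 2 genes were called, and in the AAV experiment 14 members were lower (5.6%), 1 wider-list gene (Cxcl10) was called and 304 genes in all. Library size alone gave 4 members higher in the knockout experiment (10.6%). With replicate number as a block, a pairing the labels do not give, 15 members were lower in the AAV experiment (7.61%) and 20 genes called, and 3 members were higher in the knockout experiment (6.97%), beside 2 without it (5.41%). Replicates 1 and 2 alone gave 1 member higher (3.19%), and replicates 3 and 4 alone, the deeper libraries, 3 higher (3.64%), 3 lower (3.45%) and 8 genes called. Without replicate 2 of both genotypes, a choice made after seeing the data, 4 members were higher (3.99%), 1 lower (3.06%) and 2 genes called. Leaving out 1 library at a time called 0 members in either experiment, 0 to 1 in the difference between experiments, and 0 to 15 genes in the knockout and 1 to 285 in the AAV experiment. Members higher in the knockout experiment at an unadjusted p below 0.05 then numbered 1 to 4 (3.83% to 5.75%) and members lower 0 to 1 (3.29% to 5.49%), and members lower in the AAV experiment from 1 without shAtf3 replicate 1 to 14 without shCtrl replicate 2 (5.68% to 9.32%). The median log2 fold change lay between -0.04 and 0.22 in the knockout experiment, changing sign without Atf3-/-FS6KD replicate 2, and between -0.33 and -0.06 in the AAV experiment. Apart from the values named here, no result of the members or the wider list that was followed changed its side of the threshold. Marker genes were not followed in the alternatives, the 1 fibroblast marker called in the AAV experiment included. The causes were not tested.

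None of the following genes was called, and their log2 fold changes turned sign. In the knockout experiment, library size alone gave 0.017 for Ifit3, 0.062 for Irf9, 0.042 for Eif2ak2 and 0.060 for Adar. The replicate block gave -0.069 for Igtp, and merging the copy rows 0.016 for Trim25. Replicates 1 and 2 alone gave 0.061 for Ifit3, 0.025 for Irf9, 0.12 for Eif2ak2, 0.10 for Adar, 0.33 for Trim25 and -0.47 for Trim25_1. Replicates 3 and 4 alone gave -0.18 for Ifit1, 0.15 for Gbp3, -0.44 for Igtp, -0.097 for Irgm1 and -0.12 for Ifngr1. Without replicate 2 of both genotypes the values were -0.12 for Ifit1, 0.031 for Gbp3, -0.31 for Igtp, 0.058 for Trim25 and -0.045 for Ifngr1. Leaving out 1 library at a time spanned 0 in the knockout experiment for Adar (-0.041 to 0.024), Bst2 (-0.043 to 0.16), Eif2ak2 (-0.082 to 0.043), Gbp2 (-0.24 to 0.34), Gbp3 (-0.27 to 0.23), Ifit1 (-0.25 to 0.21), Ifit3 (-0.37 to 0.17), Ifngr1 (-0.028 to 0.17), Igtp (-0.53 to 0.29), Irf9 (-0.13 to 0.090), Irgm1 (-0.10 to 0.29), and in the AAV experiment for Adar (-0.059 to 0.014), Eif2ak2 (-0.030 to 0.016), Ifnar1 (-0.093 to 0.031), Ifnar2 (-0.060 to 0.0036), Ifngr2 (-0.015 to 0.12), Igtp (-0.96 to 0.13), Irf1 (-0.17 to 0.026), Irgm1 (-0.41 to 0.013), Trim25 (-0.074 to 0.049), Usp18 (-0.37 to 0.039).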
